A study of Mus musculus with 10 samples.

Results

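Cadherins and protocadherins were taken from the count table by symbol, as every row named Cdh or Pcdh followed by a number or, for the clustered genes, by the letters of the alpha, beta or gamma cluster. The rule used no measured value. It found 80 gene identifiers among the 14300 of the table, which fall into 15 cadherins, 11 non-clustered protocadherins and 54 clustered protocadherins. The clustered genes comprise 11 of the alpha cluster, 21 of the beta cluster and 22 of the gamma cluster. The symbol Pcdha11 belongs to 2 identifiers, ENSMUSG00000007440 and ENSMUSG00000102206, which are kept apart here. In the mouse annotation 92 symbols match the rule, and the 13 not analysed here are Cdh1, Cdh3, Cdh5, Cdh15, Cdh16, Cdh17, Cdh19, Cdh26, Pcdh12, Pcdha1, Pcdha4, Pcdha8 and Pcdhb1.

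The libraries came from embryos (E14.5) of a C57BL/6J line that carries Grem1creERT and Rosa26LSLTdtomato, so that the red label depends on Cre driven from Grem1 sequences and switched on by tamoxifen, and is inherited by daughter cells. Every embryo, and so both populations, was exposed to tamoxifen through the pregnant dam 24 hours before collection. Live cells of the dorsal telencephalon, a tissue that the sample labels call only brain, were sorted into TdTomato+ cells (Grem1 positive) and TdTomato- cells (Grem1 negative) with a gate set on littermates that lacked Cre, which gave 5 libraries of either kind with mouse numbers 2 to 6. TdTomato- cells are therefore all other live cells of the dissected tissue and not a single cell type, and a cell that began to use Grem1 after the tamoxifen pulse can lie among them.

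Cadherins are calcium-dependent adhesion proteins. Classical cadherins bind the same or a related cadherin on the next cell and hold the actin cytoskeleton through catenins, and in the embryonic cortex they keep neuroepithelial cells together, guide neuronal migration and mark areas, layers and synaptic partners. Non-clustered protocadherins are weaker adhesion and signalling proteins, most of them of the delta families, with patchy expression over cortical regions. Clustered protocadherins lie in tandem arrays of promoters from which each neuron uses a few, and the resulting combinations give neurites of a cell an identity by which they recognise and avoid each other. Alpha and gamma mRNAs join a single variable exon to shared constant exons, whereas beta genes each have an exon of their own.

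Of the 80 members, 60 were higher and 7 lower in TdTomato+ cells at an adjusted p of 0.05 or less (edgeR quasi-likelihood test with the mouse as a block), and 13 were not called. Among all 14300 genes 37.9% were called higher and 39.4% lower, so calls in either direction were common between these cell populations. The 3 groups of members differed in how the calls fell. Of the clustered protocadherins 49 of 54 were higher and 0 were lower. The count of 0 also held at an unadjusted p under 0.05 in edgeR and with DESeq2, whereas DESeq2 called 43 of the 54 higher. Cadherins had 9 of 15 higher and 3 lower, and non-clustered protocadherins had 2 of 11 higher and 4 lower. The median log2 fold change was 0.80 for clustered genes, 0.58 for cadherins and −0.07 for non-clustered genes, beside −0.01 over all genes.

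**Figure D1:**
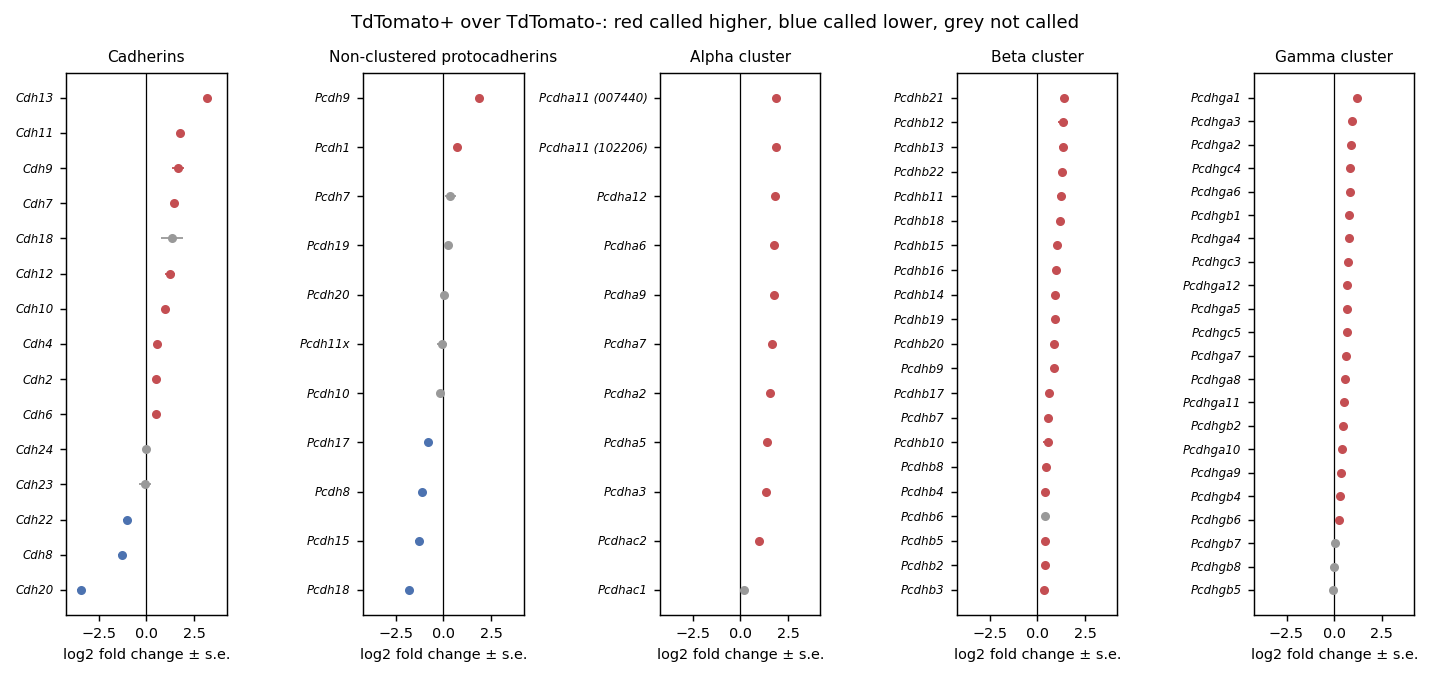
Log2 fold change of TdTomato+ over TdTomato- cells for each of the 80 members, one row a gene, with bars of 1 standard error from the edgeR fit over 5 mice; red genes were called higher, blue lower and grey were not called. Cadherins span −3.42 to 3.15, whereas the 54 clustered genes lie between −0.04 and 1.86.

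Most differences were modest in size. With the study's own threshold of an absolute log2 fold change of 2 added, Cdh13 was the 1 member above it and Cdh20 the 1 below, where 3.2% of all genes were higher and 9.74% lower by both thresholds. In 50 members all TdTomato+ libraries lay above all TdTomato- libraries in CPM (the count as a share of the library total, scaled by TMM factors), and in 6 they all lay below, beside 29.1% and 32.4% of all genes. In bulk libraries, fewer cells that express a gene cannot be told apart from less RNA of it in each cell. The labels do not say that the numbered samples came from separate litters, so p-values measure the spread between these libraries.

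The sorted populations matched their labels. Grem1 stood at 5.00 to 7.004 CPM in TdTomato- and at 60.7 to 68.4 CPM in TdTomato+ libraries. Of 6 markers of deep-layer excitatory neurons 5 were called higher in TdTomato+ cells (the exception, Foxp2, had the lower mean there, 49.3 ± 20.3 against 66.9 ± 11.1 CPM, with an adjusted p of 0.0812 in edgeR), and their summed level was 4530 to 5824 CPM against 1182 to 1641 CPM. Markers of other cells moved the opposite way: all 8 of radial glia, 6 of intermediate progenitors, 5 of cycling cells, 8 of interneurons and 5 of Cajal-Retzius cells were lower. Summed radial glia markers were 1572 to 1848 CPM in TdTomato- and 128 to 176 CPM in TdTomato+ libraries. In TdTomato+ libraries the markers of intermediate progenitors summed to at most 132 CPM, of cycling cells to 75.9 CPM and of interneurons to 80.04 CPM, against at least 914, 1321 and 1417 CPM in TdTomato- libraries. The gap was narrower for the summed Cajal-Retzius markers, with 125 to 157 against 215 to 413 CPM. Most of that sum was Reln (137 ± 8.48 against 246 ± 63.2 CPM, log2 fold change −0.81). Trp73, Lhx5, Lhx1 and Ebf3 fell further, with log2 fold changes of −3.65, −3.02, −2.79 and −2.96. Endothelial markers summed to at most 3.62 CPM, with Cldn5, Flt1, Tek and Emcn not in the table, and those of meninges to at most 5.29 CPM. Pericyte markers reached at most 15.5 CPM, choroid plexus 15.3 CPM, microglia 44.0 CPM and erythroid cells 106 CPM, each in a TdTomato- library, with 2 of 3, 1 of 1, 3 of 3 and 3 of 3 measured markers lower in TdTomato+ cells. Markers of these cells that the table does not hold are Kcnj8, Col1a1, Col3a1, Lum, Foxc1, Ttr, Kl, Folr1, Aif1 and Hbb-y. Every member described below was compared between populations that differed in this makeup, and the part of the makeup in each result was not tested.

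The numbered samples were not alike. In both populations the libraries of mice 2, 3 and 4 held Xist, the X-inactivation transcript of females, at 554 to 1066 CPM together with the Y-linked gene Kdm5d at 23.8 to 41.7 CPM. Mouse 5 had Xist at 1229 and 1580 CPM with Kdm5d at 1.07 and 1.39 CPM, and mouse 6 had Xist at 30.8 and 42.2 CPM with Kdm5d at 52.0 and 64.5 CPM, as a female and a male sample would. Whether samples 2 to 4 were pools of embryos is not given in the sources used here. Mice 3 and 4 also resembled each other: deviations of log2 CPM from the population mean correlated at 0.34 between their TdTomato+ libraries over 14300 genes, whereas the other pairs had −0.58 to 0.09, and at 0.26 against −0.51 to 0.13 among TdTomato- libraries. The labels give no batch. Without mice 3 and 4, 61 members were higher and 8 lower, against 34.8% and 36.3% of all genes. With mice 5 and 6 alone, 56 members were higher and 7 lower, against 34.7% and 36% of all genes. Both of these fits were added after the libraries had been seen.

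Levels were compared between genes per kilobase of exon, with exons that genes share included in the length. On this scale Cdh2 was the most abundant member in both populations. It had 60.7 ± 2.76 CPM per kb in TdTomato- and 88.2 ± 15.7 CPM per kb in TdTomato+ cells (s.d., n = 5). In TdTomato- cells Pcdhgc3 (35.0 ± 1.63) and Cdh4 (25.8 ± 2.69 CPM per kb) followed. The order below Cdh2 was different in TdTomato+ cells, where Cdh13 reached 57.8 ± 5.61, Pcdhgc3 57.0 ± 3.40, Cdh4 38.6 ± 5.21 and Pcdh9 24.2 ± 1.46 CPM per kb. With shared exons included, Cdh13 and Pcdhgc3 differed there by less than their spread. Cdh13 had ranked 13 in TdTomato- cells. If only exonic bases that no other gene shares are counted, Pcdhgc3 reaches 92.8 CPM per kb in TdTomato+ cells and Cdh2 stays at 88.2 ± 15.7, a gap smaller than the spread of Cdh2. Cdh13 stays at 57.8 CPM per kb on that scale, well below Pcdhgc3.

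Both measured type I cadherins, which form the adherens junctions of the neural tube, were higher in TdTomato+ cells. Cdh2 (N-cadherin) was at 472, 472, 476, 512 and 516 CPM in the TdTomato- libraries of mice 2 to 6 and at 831, 588, 562, 769 and 806 CPM in the TdTomato+ libraries. The populations did not overlap, and mice 3 and 4 were the lowest of the TdTomato+ libraries. Its log2 fold change was 0.52 ± 0.08 (s.e., adjusted p = 0.000254). For Cdh4 (R-cadherin) the corresponding levels were 163, 183, 180.4, 194 and 216 CPM in TdTomato- and 223, 319, 310.2, 273 and 277 CPM in TdTomato+ cells, again without overlap, at a log2 fold change of 0.58 ± 0.07 (adjusted p = 5.59e-05). Here mice 3 and 4 were the highest of the TdTomato+ libraries, the reverse of Cdh2.

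Cdh13 (T-cadherin, on chromosome 8, GRCm38 118283733 to 119324921) is an unusual member that is anchored in the membrane by a lipid and has no cytoplasmic tail to bind catenins. It had the largest increase of all members. TdTomato- libraries held 66.9, 71.8, 71.9, 67.9 and 85.8 CPM and TdTomato+ libraries 657, 712, 708, 577 and 592 CPM. The lowest TdTomato+ library was far above the highest TdTomato- library, and the log2 fold change was 3.15 ± 0.08 (8.91-fold, adjusted p = 3.93e-09). The other cadherin outside the classical families, Cdh23, which forms the tip links of hair cells with Pcdh15, was at 2.20 ± 0.60 and 2.15 ± 0.81 CPM and was not called (log2 fold change −0.05, 95% interval −0.66 to 0.56). Cdh23 was higher in TdTomato+ cells in mice 2, 5 and 6 and lower in mice 3 and 4. Without mice 3 and 4, which went the other way, it was called higher (0.59 ± 0.22, adjusted p = 0.0349). With mice 5 and 6 alone it was not called (0.60 ± 0.29, adjusted p = 0.075), so the call depends on the mice kept.

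Of 11 type II cadherins 6 were higher and 3 lower, beside 37.9% and 39.4% of all genes, so that calls in both directions are no mark of the group. Cdh11, a type II cadherin also known from bone and mesenchyme (chromosome 8, 102632095 to 102785642), had 36.0, 42.3, 50.004, 39.1 and 35.1 CPM in TdTomato- and 126, 148, 131, 152 and 136 CPM in TdTomato+ libraries. No library of either population came near the other, and the log2 fold change was 1.78 ± 0.08 (adjusted p = 8.51e-08). Cdh7 was at 7.39, 10.2, 8.90, 5.94 and 6.20 CPM in TdTomato- and at 17.5, 28.5, 27.1, 23.3 and 12.6 CPM in TdTomato+ cells, without overlap (1.47 ± 0.12 on the log2 scale, adjusted p = 5e-06). Cdh9, a synaptic adhesion molecule of the hippocampus, was scarce, at 0.626, 0.76, 0.882, 0.594 and 0.348 CPM against 2.95, 1.26, 1.24, 3.17 and 1.90 CPM, and mice 3 and 4 again gave the lowest TdTomato+ values. Its log2 fold change of 1.65 ± 0.33 (adjusted p = 0.00148) became 2.35 ± 0.27 without mice 3 and 4.

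Cdh20 (chromosome 1, 104768529 to 104995481) had the largest fall of all members. It went from 5.04, 4.25, 3.85, 3.84 and 4.63 CPM in TdTomato- libraries to 0.272, 0.564, 0.441, 0.348 and 0.362 CPM in TdTomato+ libraries, where it rested on 6 to 13 reads in each library. The log2 fold change was −3.42 ± 0.21 (10.7-fold lower, adjusted p = 5.61e-07), and TdTomato+ cells were lower in all 5 mice.

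Cdh8 and Cdh22 were also lower in TdTomato+ cells, by an amount that varied between mice. Cdh8, a synaptic type II cadherin with areal expression in the cortex, was at 51.9, 49.0, 52.2, 60.9 and 57.0 CPM in TdTomato- cells and at 30.7, 12.9, 11.7, 32.8 and 29.7 CPM in TdTomato+ cells. Mice 3 and 4 held the lowest TdTomato+ levels, and the log2 fold change over all mice was −1.30 ± 0.20 (adjusted p = 0.000291). Without mice 3 and 4 the log2 fold change of Cdh8 was −0.86 ± 0.07 (adjusted p = 1.24e-06). For Cdh22 the TdTomato- libraries held 12.4, 18.6, 23.4, 15.3 and 13.3 CPM and the TdTomato+ libraries 4.72, 14.5, 17.5, 5.04 and 4.07 CPM, so that here mice 3 and 4 were the highest in both populations. The populations overlapped, yet every mouse was lower in its TdTomato+ library, with a log2 fold change of −1.03 ± 0.21 (adjusted p = 0.00177), and of −1.56 ± 0.13 (adjusted p = 1.12e-06) without mice 3 and 4. The call over all mice needs the pairing by mouse: without the replicate block the log2 fold change was −0.85 and the adjusted p 0.0659.

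The remaining type II cadherins were chosen for mention after their values had been seen, to account for every gene of the group. Cdh10, Cdh12 and Cdh6 were called higher, at log2 fold changes of 0.97, 1.22 and 0.49. Cdh12 (Br-cadherin) was at 4.39 to 5.97 CPM in TdTomato- libraries and at 6.62, 18.8, 23.6, 10.7 and 7.77 CPM in TdTomato+ libraries, so that its increase was largest in mice 3 and 4. Without these mice the log2 fold change of Cdh12 was 0.63 ± 0.18 (adjusted p = 0.00826). Cdh18 had 3.63, 1.26, 1.10, 4.48 and 1.36 CPM in TdTomato+ cells against 0.743, 1.21, 1.60, 0.238 and 0.523 CPM in TdTomato- cells and missed the threshold (adjusted p = 0.052), but passed it without mice 3 and 4 (log2 fold change 2.55 ± 0.42, adjusted p = 0.000234). Cdh24 was level, at 56.4 ± 9.10 and 55.1 ± 7.49 CPM, with a 95% interval of the log2 fold change from −0.16 to 0.10.

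**Figure D2:**
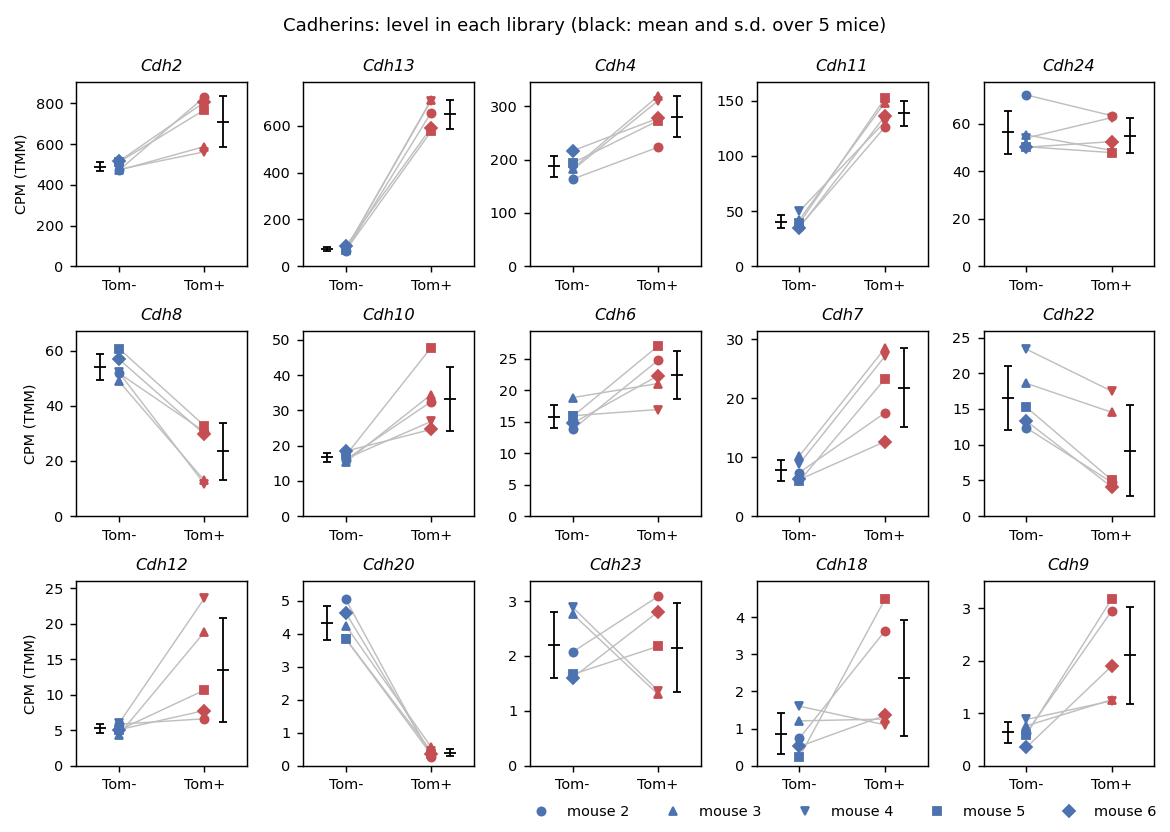
CPM (TMM-scaled, linear axis from 0) of the 15 cadherins in each TdTomato- (blue, Tom-) and TdTomato+ (red, Tom+) library; symbols mark the mouse, grey lines join the libraries of a mouse, and black marks give the mean and s.d. over 5 mice. Cdh13 rises from 72.9 to 649 CPM with no overlap, whereas the TdTomato+ values of Cdh8, Cdh22 and Cdh12 split between mice 3 and 4 (triangles) and the other 3 mice.

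Upstream sequence is shown for the cadherin with the largest fall and the non-clustered protocadherin with the largest rise, to show what precedes the start of these genes. The 250 bases before the RefSeq start (GRCm38.p6) are printed along the gene's strand, and capitals mark CCAAT or its reverse complement ATTGG, a common promoter element. Cdh20 lies on the plus strand (chr1:104768270-104768519) and holds 2 matches that overlap each other, and Pcdh9 on the minus strand (chr14:93890680-93890929) holds 1.
Cdh20: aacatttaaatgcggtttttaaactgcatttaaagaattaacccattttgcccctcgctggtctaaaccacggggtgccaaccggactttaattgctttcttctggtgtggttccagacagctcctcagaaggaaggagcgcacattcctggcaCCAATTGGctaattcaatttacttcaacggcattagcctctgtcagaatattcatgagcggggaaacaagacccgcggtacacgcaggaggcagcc
Pcdh9: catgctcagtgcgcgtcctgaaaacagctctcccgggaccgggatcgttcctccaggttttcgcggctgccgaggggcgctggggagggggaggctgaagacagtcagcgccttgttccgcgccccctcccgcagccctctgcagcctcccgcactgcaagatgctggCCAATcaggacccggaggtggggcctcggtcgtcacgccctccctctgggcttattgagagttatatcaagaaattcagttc

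Promoter sequences matched 20 member symbols in 23 rows, of which 13 were of cadherins and 10 of non-clustered protocadherins. Over the same 250 bases and both strands, CCAAT stood in 9 of the 10 non-clustered and 5 of the 13 cadherin promoters, beside 33.8% of 32851 promoters of all genes. TATAAA stood in 2 of the 10 non-clustered and 0 of the 13 cadherin promoters. That is 8.7% of the member promoters, beside 12.4% of all promoters. The 2 matches belonged to Pcdh8 and Pcdh15, a count too small to be read against the fold changes. The Pcdh9 sequence is GC-rich (63.6%) and that of Cdh20 is not (47.6%), beside a median of 52.4% over all promoters. A gene can have several rows with overlapping windows, as Pcdh9 does, and a match is a description of these letters.

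Among the non-clustered protocadherins, the delta-1 genes Pcdh9 and Pcdh1 were higher in TdTomato+ cells. Pcdh9 (chromosome 14, 93013410 to 93890679) was at 42.5, 50.005, 55.7, 41.2 and 38.7 CPM in TdTomato- libraries and at 168, 175, 169.8, 156 and 151 CPM in TdTomato+ libraries. The TdTomato+ libraries were close to each other and all far above the TdTomato- libraries, at a log2 fold change of 1.85 ± 0.06 (3.61-fold, adjusted p = 1.15e-08). Pcdh1, also found in epithelia, was at 61.0, 70.7, 77.8, 72.6 and 64.8 CPM and at 103, 125, 127, 120.1 and 88.9 CPM, without overlap (0.69 ± 0.06 on the log2 scale, adjusted p = 3.82e-06).

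Of the delta-2 protocadherins, whose tails recruit the WAVE actin regulators, 3 of 5 were lower in TdTomato+ cells, a count that is too small to read against the 39.4% of all genes that were lower. Pcdh18 (chromosome 3, 49743296 to 49757325) had 28.03, 40.2, 37.0, 35.8 and 31.7 CPM in TdTomato- and 10.4, 8.20, 6.93, 12.8 and 11.8 CPM in TdTomato+ cells. The populations were well apart, and the log2 fold change was −1.80 ± 0.16 (3.47-fold lower, adjusted p = 6.81e-06). Pcdh8 (arcadlin), an activity-regulated protocadherin of synapses, was at 70.1, 65.4, 66.0, 79.4 and 81.4 CPM against 46.7, 20.6, 21.9, 41.6 and 43.4 CPM (−1.12 ± 0.15, adjusted p = 0.000103). Pcdh17 was at 54.9, 56.6, 56.3, 54.8 and 51.5 CPM against 39.0, 27.1, 24.2, 46.7 and 26.8 CPM (−0.78 ± 0.13, adjusted p = 0.000525). Neither overlapped, and for both genes mouse 4 or mouse 3 gave the lowest TdTomato+ value.

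The other delta-2 genes, Pcdh10 and Pcdh19, were not called. Pcdh10 (OL-protocadherin) had 131, 145, 151, 134 and 131 CPM in TdTomato- and 106, 148, 138, 145 and 84.0 CPM in TdTomato+ libraries, with a log2 fold change of −0.19 ± 0.10 (adjusted p = 0.111, 95% interval −0.38 to 0.01). Pcdh19, an X-linked gene whose human counterpart is mutated in an epilepsy of females, was at 91.2, 126, 133, 94.2 and 78.3 CPM and at 80.3, 213, 231, 95.7 and 65.9 CPM. Its TdTomato+ level was thus above the TdTomato- level of the same mouse by a wide margin in mice 3 and 4, narrowly in mouse 5, and below it in mice 2 and 6. The log2 fold change of 0.24 ± 0.16 (adjusted p = 0.202) turned to −0.13 without mice 3 and 4 (adjusted p = 0.11), so that no direction can be given for this gene.

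Pcdh7 (NF-protocadherin, delta-1), singled out after its values were seen, showed the opposite split. Its TdTomato- libraries held 40.2, 46.1, 48.0, 35.7 and 35.1 CPM and its TdTomato+ libraries 87.6, 33.9, 24.4, 75.7 and 65.1 CPM. TdTomato+ cells were higher in mice 2, 5 and 6 and lower in mice 3 and 4. Over all mice the log2 fold change was 0.36 ± 0.30 (adjusted p = 0.294), and without mice 3 and 4 it was 1.03 ± 0.07 (adjusted p = 2.91e-07). Reads of Pcdh7 can be shared with an antisense gene over 21.1% of its exonic length.

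Pcdh15, a gene outside the delta families that is best known from hair cells, was lower, at 5.94, 5.56, 5.09, 4.32 and 5.09 CPM in TdTomato- and 1.54, 2.00, 2.96, 2.87 and 1.63 CPM in TdTomato+ cells. All TdTomato+ libraries lay below all TdTomato- libraries (log2 fold change −1.26 ± 0.21, adjusted p = 0.000436). Pcdh20 was level at 5.24 ± 0.82 and 5.34 ± 1.16 CPM, with a 95% interval of its log2 fold change from −0.20 to 0.23. Pcdh11x, the second X-linked member, had 7.31, 8.99, 8.66, 6.54 and 5.68 CPM in TdTomato- and 7.30, 7.50, 7.77, 13.1 and 2.53 CPM in TdTomato+ libraries. The TdTomato+ libraries were spread on both sides of the others, and Pcdh11x was not called (log2 fold change −0.07, 95% interval −0.54 to 0.41).

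Spread between mice was itself uneven over the groups. In TdTomato+ cells the median s.d. of log2 CPM over 5 libraries was 0.37 for cadherins and 0.41 for non-clustered protocadherins, against 0.20 for clustered ones and 0.14 for all genes. In TdTomato- cells the same medians were 0.18, 0.20, 0.19 and 0.14. All libraries had similar depth, with total counts of 23429034 to 27286180.

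**Figure D3:**
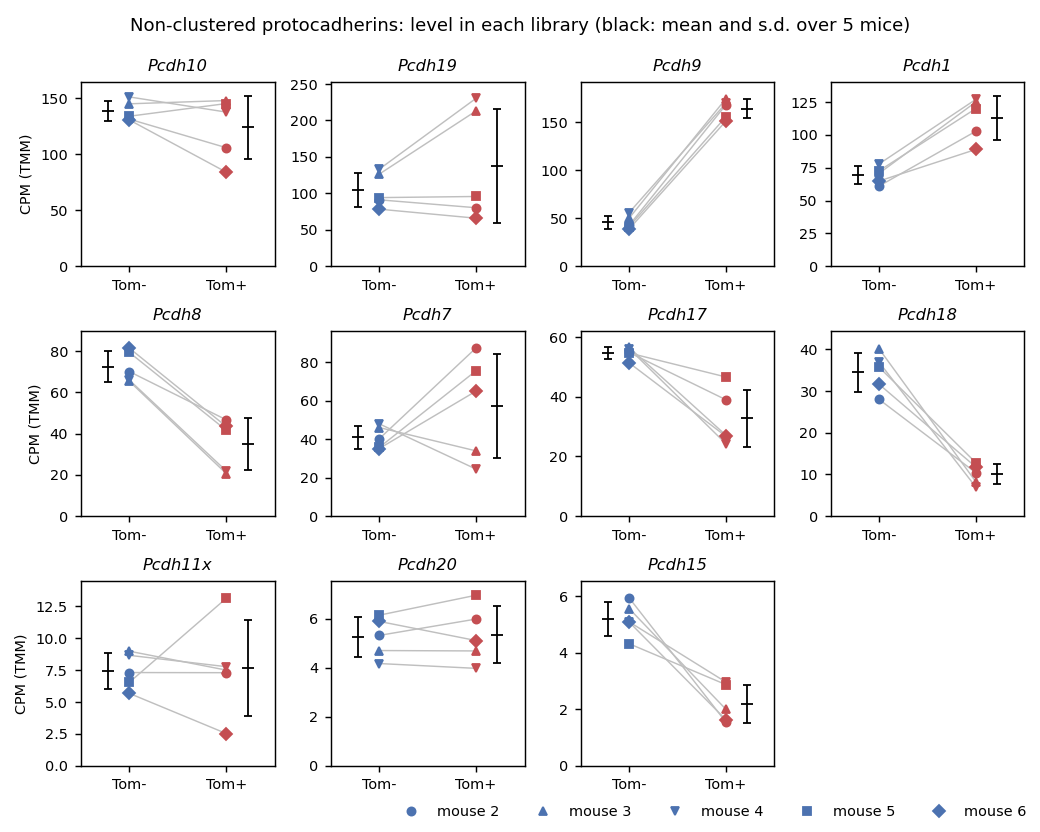
CPM (TMM-scaled, linear axis from 0) of the 11 non-clustered protocadherins in each TdTomato- (blue, Tom-) and TdTomato+ (red, Tom+) library, with grey lines joining the libraries of a mouse and black marks for the mean and s.d. over 5 mice. Pcdh9 and Pcdh18 move the same way in all 5 mice, whereas in Pcdh7 and Pcdh19 the TdTomato+ libraries of mice 3 and 4 (triangles) lie apart from the other 3.

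The clustered protocadherins as a whole were more abundant in TdTomato+ cells. Summed over its 11 genes, the alpha cluster was at 45.6, 43.0, 46.5, 41.2 and 36.1 CPM in TdTomato- libraries and at 111, 109, 109, 124 and 97.8 CPM in TdTomato+ libraries. The beta cluster summed to 87.2 ± 5.39 and 155 ± 21.7 CPM, and the gamma cluster to 494 ± 19.9 and 764 ± 21.3 CPM (s.d., n = 5). The log2 ratio within a mouse averaged 1.38 ± 0.14 for alpha, 0.82 ± 0.19 for beta and 0.63 ± 0.07 for gamma (s.d.), and was above 0 in all 5 mice for each. Sums over chosen genes are given without a test.

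**Figure D4:**
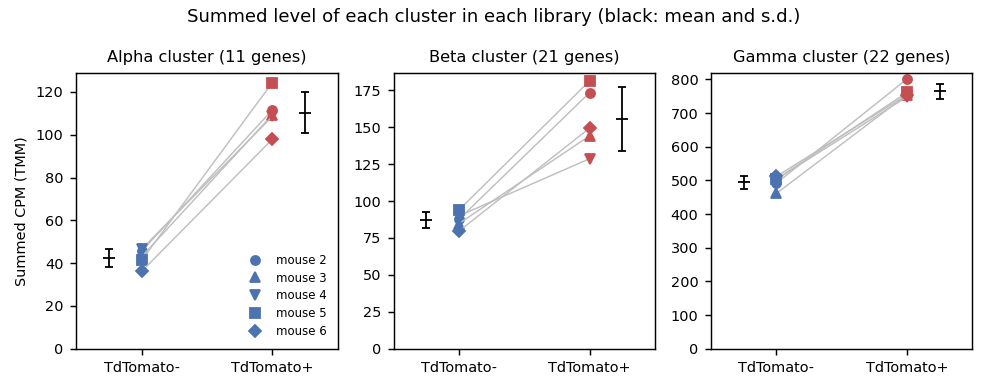
Summed CPM (TMM-scaled, linear axis from 0) of the alpha, beta and gamma clusters in each library, with symbols for the mice, grey lines joining the libraries of a mouse, and black marks for the mean and s.d. over 5 mice. In each cluster all TdTomato+ libraries lie above all TdTomato- libraries, with mean log2 ratios of 1.38, 0.82 and 0.63.

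In the alpha cluster 10 of 11 genes were higher, beside 37.9% of all genes, with a median log2 fold change of 1.67. The variable genes Pcdha2 to Pcdha12 had log2 fold changes of 1.37 to 1.86 and all 9 of them were called. Pcdha12, the most abundant of the 9 variable genes, was at 5.43, 4.77, 3.73, 4.72 and 4.25 CPM in TdTomato- and 18.2, 13.3, 12.6, 20.8 and 17.2 CPM in TdTomato+ cells (log2 fold change 1.83 ± 0.11, adjusted p = 4.74e-07). Pcdha6 was at 2.19, 1.66, 2.21, 1.55 and 1.05 CPM and at 5.98, 7.33, 5.78, 6.17 and 3.84 CPM (1.76 ± 0.16, adjusted p = 6.65e-06). Both were without overlap between populations.

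The symbol Pcdha11 gave the largest log2 fold changes of the clustered genes. For ENSMUSG00000007440 the TdTomato- libraries held 1.68, 1.21, 1.72, 1.55 and 1.64 CPM and the TdTomato+ libraries 6.57, 5.12, 4.02, 7.39 and 5.51 CPM (1.86 ± 0.17, adjusted p = 7.88e-06). For ENSMUSG00000102206, of whose exonic length 44.3% is overlapped by antisense genes, the levels were 3.44, 3.46, 3.09, 3.68 and 1.74 CPM and 10.6, 11.7, 10.3, 13.8 and 8.68 CPM (1.85 ± 0.12, adjusted p = 7.73e-07). No library of one population reached the range of the other in either gene.

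Neurons use the C-type genes at the end of the alpha and gamma clusters without the random choice made among the others. Of these genes 4 of 5 were called higher, beside 37.9% of all genes, with log2 fold changes of 0.22 to 0.96. Pcdhac1 was not called, at 2.73 ± 0.13 and 3.19 ± 0.47 CPM, with a 95% interval of the log2 fold change from −0.04 to 0.47. Pcdhac2, next to it, was higher at 16.7 ± 2.31 and 32.7 ± 4.69 CPM (0.96 ± 0.06, adjusted p = 3.57e-07). In the gamma cluster Pcdhgc3 was at 183, 183, 198, 201 and 197 CPM in TdTomato- and 303, 328, 339, 301 and 297 CPM in TdTomato+ libraries (0.70 ± 0.05, adjusted p = 1.19e-06). An antisense gene overlaps 28.4% of its exonic length, so its level is uncertain by the reads the pair may share. Pcdhgc3 alone held 39.0 ± 1.11% of the gamma counts in TdTomato- and 41.1 ± 3.13% in TdTomato+ cells. Pcdhgc4 and Pcdhgc5 were also called higher, at log2 fold changes of 0.84 and 0.65.

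In the beta cluster 20 of 21 genes were higher, beside 37.9% of all genes, with a median of 0.90. The exception was Pcdhb6 with a log2 fold change of 0.41 (adjusted p = 0.051). Leaving out mouse 2 ended 6 of these 20 calls (Pcdhb2, Pcdhb3, Pcdhb4, Pcdhb5, Pcdhb8 and Pcdhb10), and leaving out any other single mouse ended 1 to 4. The range ran from 0.35 in Pcdhb3 to 1.39 in Pcdhb21. For Pcdhb12, at 1.21 ± 0.47 and 3.00 ± 0.58 CPM, 63.5% of the exonic length is overlapped by an antisense gene, so that its log2 fold change of 1.35 is uncertain.

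Gamma A and gamma B genes alternate along the gamma cluster. All 12 gamma A genes were higher, with a median log2 fold change of 0.68, and 4 of 7 gamma B genes were, with a median of 0.26, beside 37.9% of all genes. The difference between the subfamilies was not tested. With mice 5 and 6 alone the gamma A genes Pcdhga9 and Pcdhga10 were not called (adjusted p = 0.0545 and 0.0624 in edgeR). Among the gamma B calls that of Pcdhgb4 (0.28) ended when mouse 2, mouse 3 or mouse 4 was left out (adjusted p = 0.102, 0.0753 and 0.0951 in edgeR), and its log2 fold change was 0.06 with mice 5 and 6 alone. Pcdhga12 was at 26.3, 26.9, 27.5, 24.8 and 24.1 CPM in TdTomato- and 43.5, 40.4, 41.3, 42.7 and 41.7 CPM in TdTomato+ libraries, narrow in both (0.69 ± 0.05, adjusted p = 2.37e-06). Pcdhga11 was at 37.2, 31.1, 34.1, 37.9 and 35.1 CPM against 58.2, 45.6, 42.5, 53.0 and 50.2 CPM (0.50 ± 0.06, adjusted p = 2.91e-05). Antisense genes overlap 29.0% of the exonic length of Pcdhga11 and 55.2% of that of Pcdhga10, whose values are uncertain to that extent.

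The most abundant gamma B gene, Pcdhgb6, differed little: 33.0, 32.7, 38.9, 33.1 and 35.5 CPM in TdTomato- cells against 43.1, 42.1, 41.7, 42.1 and 38.4 CPM in TdTomato+ cells. The populations overlapped by a single library on each side, and the log2 fold change was 0.26 ± 0.06 (adjusted p = 0.00314). The 3 gamma B genes that were not called, Pcdhgb5, Pcdhgb7 and Pcdhgb8, had log2 fold changes of −0.04, 0.05 and −0.01. Pcdhgb5 stood at 11.6 ± 1.01 and 11.3 ± 1.14 CPM and Pcdhgb7 at 19.8 ± 0.97 and 20.6 ± 1.61 CPM.

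Among the beta genes and the variable alpha and gamma genes, position along the cluster went with the size of the difference, a pattern noticed in these data and described without a test. In the beta cluster the 11 genes from Pcdhb2 to Pcdhb12 had a median log2 fold change of 0.48 and the 10 from Pcdhb13 to Pcdhb22 one of 1.02. Over the 21 genes the Spearman correlation of the log2 fold change with the order along the cluster was 0.76. Within each of the 5 mice the median of the upstream genes was below that of the downstream genes, by a mean difference of −0.49 ± 0.11 (s.d.). The genes share libraries and neighbours, and are not independent.

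The gamma cluster had the opposite order. Its 10 upstream A and B genes, Pcdhga1 to Pcdhgb4, had a median log2 fold change of 0.79 and its 9 downstream ones, Pcdhga8 to Pcdhga12, one of 0.37. The Spearman correlation with the order was −0.72 over 19 A and B genes, −0.79 over the 12 gamma A genes and −0.79 over the 7 gamma B genes, so the fall along the cluster appeared in both subfamilies. Upstream genes exceeded downstream genes in each of the 5 mice, by 0.43 ± 0.12. Among the 9 variable alpha genes the correlation was 0.83, over the narrow range from 1.37 to 1.86. With the C-type genes included it was −0.43 over all 22 gamma genes and 0.0091 over all 11 alpha genes.

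**Figure D5:**
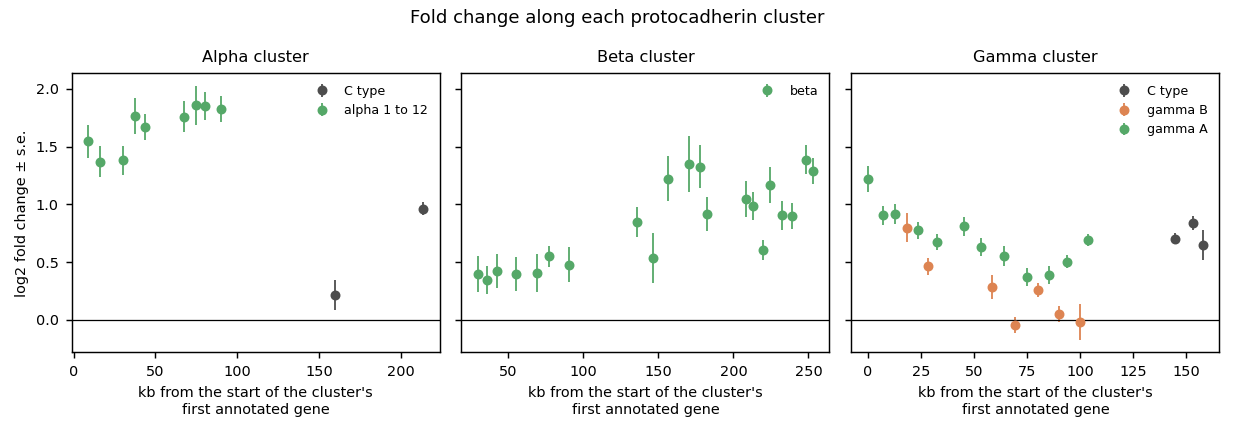
Log2 fold change of TdTomato+ over TdTomato- cells (with 1 standard error) against the distance in kilobases from the start of the first annotated gene of the alpha, beta and gamma protocadherin clusters. Beta genes lie higher towards the downstream end (medians 0.48 and 1.02), and gamma A (green) and gamma B (orange) genes lie lower (medians 0.79 and 0.37), with C-type genes in grey.

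Counts of single alpha and gamma genes carry a limit of their own. Each alpha gene shares 38.9% to 59.9% of its exonic length with others on the same strand, and each gamma gene 31.5% to 66.8%, mainly in the constant exons at the end. A read from a constant exon cannot be given to a single gene, so these counts rest on reads in the unshared part, and the sums are less than all reads of a cluster.

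The partner genes of the family, a list of 60 with 54 in the table, included 20 that were higher and 25 that were lower in TdTomato+ cells. Beside the 37.9% higher and 39.4% lower among all genes, which are also the background of the lists that follow, the counts over the whole list are near the background. Of the 7 catenins, which couple classical cadherins to actin, 4 were higher and 2 lower. Ctnna1 (alpha-E-catenin), the form of epithelia and neural progenitors, fell from 168 ± 8.06 to 23.7 ± 2.73 CPM (log2 fold change −2.83 ± 0.06, adjusted p = 1.78e-09), and Ctnnb1 (beta-catenin) fell from 1212 ± 70.8 to 546 ± 23.2 CPM. The neuronal forms went the other way: Ctnna2 (alpha-N-catenin) rose from 251 ± 11.5 to 459 ± 14.8 CPM and Ctnnd2 (delta-catenin) from 229 ± 14.8 to 544 ± 93.8 CPM. Jup (plakoglobin) rose by 0.55 on the log2 scale, Ctnna3 was higher at a level under 1 CPM, and Ctnnd1 (p120-catenin) was level at 29.6 ± 1.16 and 30.7 ± 2.46 CPM. Cdh2 and Cdh4 thus rose together with Ctnna2 and Ctnnd2, while Ctnna1 and Ctnnb1 fell.

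Large members of the cadherin superfamily, which act in planar polarity and cell recognition, held changes in both directions. Of the 12 measured ones, 8 were higher and 3 lower, beside 37.9% and 39.4% of all genes. Fat4 rose from 332 ± 13.5 to 1458 ± 82.7 CPM (log2 fold change 2.13 ± 0.04, adjusted p = 1.53e-09), Fat3 had a log2 fold change of 1.96 ± 0.04 and Clstn2, a calsyntenin, one of 1.71 ± 0.13. Celsr1 fell from 430.1 ± 65.7 to 21.2 ± 6.49 CPM (−4.37 ± 0.13, adjusted p = 7.97e-09), Fat1 from 267 ± 20.7 to 16.5 ± 2.79 CPM and Dchs2 from 5.55 ± 2.87 to 0.78 ± 0.38 CPM. Of 4 nectin and afadin genes 1 was higher and 2 were lower.

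Genes that regulate the clustered protocadherin promoters were mostly lower. Of the 18 in the list, which holds Ctcf, cohesin subunits and loaders, and DNA and histone methyltransferases, 16 were lower and 0 were higher (0 also at an unadjusted p under 0.05 in edgeR and with DESeq2), where 39.4% of all genes were lower and 37.9% higher. Their median log2 fold change was −0.36, from −1.21 in Rad21 to −0.01 in Wiz. Ctcf was at 203 ± 4.28 and 167 ± 3.53 CPM, and Dnmt3a at 223 ± 16.1 and 110.5 ± 39.3 CPM. Several of these genes also serve dividing cells, whose markers were lower in TdTomato+ cells, and the part of that difference was not tested. Of 13 effectors of protocadherins 7 were higher and 2 lower, with a median of 0.14, beside the same shares of all genes.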

How the data were processed

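RNA of FACS-sorted TdTomato+ and TdTomato- cells was sequenced in 10 libraries. The authors deposited raw read counts per gene, made with STAR 2.4.2a on GRCm38 from trimmed, uniquely mapped reads. The annotation release and the counted strand are not given in the sources used here, and labels and methods differ in kit, input, sequencer and read length. The methods describe strand-specific libraries, so whether antisense reads entered these counts depends on the strand that was counted. Total counts were 23429034 to 27286180 per library, and a count of 3 corresponds to about 0.11 to 0.13 CPM, which covers counting error only. Every gene of the table reaches 0.501 CPM in at least 5 libraries. GENCODE (vM21, GRCm38) named 14271 of 14300 identifiers. Upstream sequences came from RefSeq.

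The two-sided quasi-likelihood test of edgeR 4.0.16 (R 4.3.3) was run on counts filtered by filterByExpr and scaled by TMM, at a prior count of 0.125, with mouse number as a block as in the study's paired design and Benjamini-Hochberg adjustment over 14300 genes. Log2 CPM used a prior count of 2. Same-numbered libraries deviated together (correlations of 0.303, 0.268, 0.281, 0.186 and 0.316 for mice 2 to 6, −0.312 to 0.212 between numbers), so the numbers pair the samples. Intervals of fold changes (95%) assume a normal error of the estimate. Tested on simulated data of 14276 genes, the fit called 88% of planted log2 changes of 1 and 92% of −1, and 100% of changes of 2 in either direction.

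Values in every library are given, per group, for the 4 most abundant members and the 4 with the largest increase and decrease among those called (25 members in all). Of the partner genes, the catenins and the 4 largest changes in each direction are named. Members and lists were chosen with earlier results of these data known. The alternatives comprised normalization by upper quartile or by RLE, the Wald test of DESeq2 1.42.0, omission of the count filter or a stricter one (above 1 CPM in 5 or more libraries), the fit with no replicate block, robust estimation, TREAT against a log2 fold change of 1, each mouse left out, raw library sizes for sums and unshared exonic length. Fits without mice 3 and 4 and without mice 2, 3 and 4 were added after seeing the data.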

Additional observations from a re-analysis of the deposited data

Results flagged for a closer look

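In 6 of the 160 sets of 5 libraries (80 members in each population), 1 library stood far from the others, where chance gives about 8. The gap to the nearest library, as a share of the whole range of the 5, was 0.73 for Cdh24, with mouse 2 at 72.2 CPM and the others at 50.2 to 55.4 CPM in TdTomato- cells. It was 0.713 for Cdh13, with mouse 6 at 85.8 CPM and the others at 66.9 to 71.9 CPM in TdTomato- cells. For ENSMUSG00000102206 (Pcdha11) the share was 0.762, with mouse 6 at 1.74 CPM below the others at 3.09 to 3.68 CPM, and for Pcdhga5 it was 0.726, with mouse 6 at 11.3 CPM below 12.5 to 13.0 CPM, both in TdTomato- cells. In TdTomato+ cells it was 0.821 for Pcdhga9, with mouse 2 at 13.6 CPM above 10.7 to 11.2 CPM, and 0.722 for Pcdhgb6, with mouse 6 at 38.4 CPM below 41.7 to 43.1 CPM. Mouse 6 accounts for 4 of the 6.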

How the results depend on the processing

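Counts called higher among the 80 members ranged from 53 to 62 over the alternatives and counts called lower from 6 to 8. In the paired analysis 60 were higher and 7 lower, and without the replicate block 61 and 6. The number of members past both thresholds moved most: 16 higher and 2 lower by TREAT against a log2 fold change of 1, which is the lower threshold, 3 higher without mice 3 and 4 (Cdh9, Cdh18 and Cdh13), 7 higher without mice 2, 3 and 4, and 1 to 2 when each replicate was left out (the second, without mouse 4, was ENSMUSG00000007440). By TREAT 1229 of all 14300 genes were higher and 1964 lower. Of single genes, Cdh22 lost its call without the block, Pcdh10 gained one as lower without mice 3 and 4 (−0.27, adjusted p 0.0483) and without mouse 5 (−0.26, adjusted p 0.0464), and Pcdh19 turned to −0.13 without mice 3 and 4 and −0.11 without mice 2, 3 and 4. Without mice 3 and 4, Cdh23 (0.59, adjusted p 0.0349), Cdh18 and Pcdh7 also gained a call as higher, Pcdhb2 (0.20, adjusted p 0.376) and Pcdhgb4 (0.21, adjusted p 0.185) lost theirs, and Pcdhb10 moved from 0.54 to 0.83. With mice 5 and 6 alone Cdh23 was not called (0.60, adjusted p 0.075 in edgeR). Leaving out 1 mouse ended 2 to 7 calls, all of them beta genes or Pcdhgb4: mouse 2 ended those of Pcdhb2, Pcdhb3, Pcdhb4, Pcdhb5, Pcdhb8, Pcdhb10 and Pcdhgb4. The median of non-clustered protocadherins had no stable sign (−0.26 to 0.08 with each mouse left out). On raw library sizes the median log2 ratio of all genes shifted by −0.17, and the sums by a like amount, to 1.20 for the alpha and 0.45 for the gamma cluster, with 51 of 54 clustered genes above 0 in place of 52. Depth was even, so counting error as a share of the level is largest in the members of lowest CPM. Its part in the calls that ended was not tested.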
